A study of Mus musculus with 12 samples.

Results

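The stromal vascular fraction of mouse inguinal fat was compared between 3 RNA-seq libraries labelled Kdm5c+/- and 3 labelled Kdm5c+/+, called wild type here. These are 6 of the 12 libraries of the study, taken by their fraction label. The other 6 hold the mature adipocytes of the same depot. All mice were female C57BL/6, and each library was made from the fat of 2 pooled mice, so that the replicates are pools. The labels name no age, treatment or kind of Kdm5c allele. The fat was digested with collagenase, and the stromal vascular cells were spun into a pellet while the adipocytes floated. Of 16670 genes listed, 13792 reached 1 CPM (counts per 1000000 counted reads) in at least 3 of the 6 libraries and were tested. The comparison asks which genes of the stromal vascular cells differ between the genotype labels.

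KDM5C is an enzyme that removes methyl groups from lysine 4 of histone H3, a mark of active promoters and enhancers. Its gene lies on the X chromosome and is known to escape X inactivation, so that females normally express both copies. The stromal vascular fraction is a mixture of adipocyte progenitors, endothelial cells, pericytes, macrophages and lymphocytes. The progenitors in it are fibroblast-like cells around the vessels, from which new fat cells form.

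Kdm5c (chromosome X, 152233020 to 152274535, plus strand, GRCm38) stood at 194, 190.4 and 175 CPM in Kdm5c+/- and 188, 185 and 180.1 CPM in wild type. The labels could not be told from these levels, since the groups overlapped and averaged 186 ± 9.89 CPM and 185 ± 4.09 CPM (SD, n = 3 each). The log2 difference, taken on log2(CPM + 1) as are all differences below and given ± SE, was 0.01 ± 0.07 (limma, adjusted p = 0.978), and the interval of the ratio ran from 0.895 to 1.14 (95%). Reads were summed over the gene, so a loss of some exons need not show in this level. Every direction below follows the labels, and "Kdm5c+/-" means the libraries that carry that label.

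Markers of progenitors (Pdgfra, Cd34), endothelium (Pecam1, Cdh5), macrophages and lymphocytes were all detected, as the fraction label says. The libraries held 21836878 to 27517299 reads, and 3 reads came to 0.109 to 0.137 CPM. Replicates of 1 genotype differed far beyond counting error (mean chi-square per gene 23.97 to 61.5, where counting alone gives 1). Kdm5c+/- replicate 2 stood apart on the first principal component, which held 42.9% of the variance: it scored 33.9, and the other libraries -17.8 to 4.74. That library was high in adipocyte and mammary genes and low in lymphocyte genes. Adipoq, the adipocyte hormone adiponectin, was at 165, 169 and 55.8 CPM in Kdm5c+/- and 105, 45.4 and 59.5 CPM in wild type. The luminal keratin Krt8 was at 24.03, 66.4 and 13.1 CPM in Kdm5c+/- and 20.3, 16.3 and 53.1 CPM in wild type, with wild-type replicate 3 also high. Cd79a of the B cell receptor was at 26.7, 8.75 and 39.0 CPM in Kdm5c+/- and 39.7, 31.4 and 11.1 CPM in wild type, low in the same pair of libraries. Over whole lists, the 13 tested markers of luminal mammary epithelium summed to 158 to 600.1 CPM in Kdm5c+/- and 231 to 452 CPM in wild type. The 12 B cell markers summed to 219.7 to 485 and 324 to 538 CPM, and the 16 T and natural killer cell markers to 66.1 to 280.3 and 62.0 to 237 CPM. The ribosomal RNA precursor Rn45s stood at 18620.5, 19532 and 8985 CPM in Kdm5c+/- and 6733, 6554 and 6676 CPM in wild type, higher in all 3 Kdm5c+/- libraries (log2 difference 1.16 ± 0.29, adjusted p = 0.617 in limma). Of the mesothelium markers, 0 reached the filter, and Alas2 was the 1 red blood cell marker that did.

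**Figure D1:**
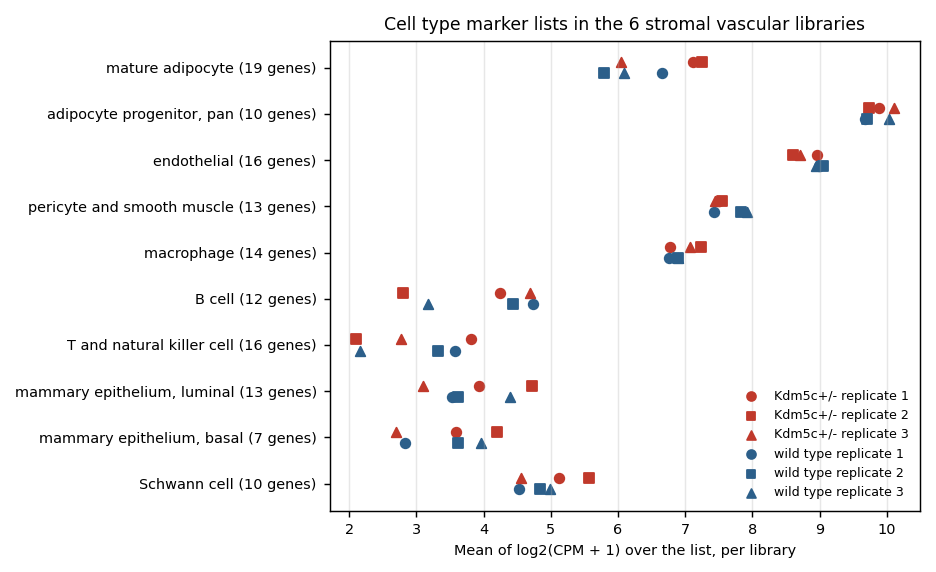
Mean log2(CPM + 1) of 10 marker lists (x axis) in each of the 6 stromal vascular libraries; red marks Kdm5c+/-, blue wild type, and the symbol gives the replicate. Kdm5c+/- replicate 2 (red square) is lowest for B cells and highest for luminal mammary genes. For the progenitor list it lies within the range of the other libraries, 9.68 to 10.1.

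Rps4l was the 1 gene of 13792 that passed the threshold, an adjusted p under 0.05 in limma (0.00725% of genes tested). It encodes a transcript like that of the X-linked ribosomal protein gene Rps4x, and its level in Kdm5c+/- was about 2.12 times that in wild type. Rps4l stood at 55.6, 59.1 and 59.1 CPM in Kdm5c+/- and 24.7, 28.5 and 28.7 CPM in wild type. All 3 Kdm5c+/- libraries lay above all wild-type libraries, with group means of 57.9 ± 2.05 CPM and 27.3 ± 2.23 CPM (SD, n = 3 each). The log2 difference was 1.06 ± 0.08 (adjusted p = 0.0347). With any 1 of the 6 libraries left out, the log2 difference stayed between 0.99 and 1.10, but the adjusted p was 0.120 to 0.316 and no gene passed (0). In the mature adipocyte libraries Rps4l was at 49.5, 46.5 and 65.2 CPM in Kdm5c+/- and 26.7, 35.6 and 28.7 CPM in wild type. Libraries of the 2 fractions may share their pools of mice, so these values are no independent sample of mice.

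Rps4l lies on chromosome 6 from 148354656 to 148355598 (plus strand, GRCm38), and GENCODE release 21 for mouse lists it as a transcribed processed pseudogene. Such copies arise when a spliced messenger RNA is written back into the genome, so reads can fit both the copy and its source. Aligned with the coding sequence of Rps4x (792 bases), the Rps4l transcript was identical in 637 of 797 columns (79.9%), and the longest identical stretch was 35 bases. The 60-base window with the most differences (19, bases 61 to 120 of the Rps4x coding sequence) and the one with the fewest (3, bases 721 to 780) are printed from the GENCODE transcripts to show how far the copies can be told apart, 5′ to 3′ with differing bases in capitals.
Rps4x, most different: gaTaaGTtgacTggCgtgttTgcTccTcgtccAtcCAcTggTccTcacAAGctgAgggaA
Rps4l, most different: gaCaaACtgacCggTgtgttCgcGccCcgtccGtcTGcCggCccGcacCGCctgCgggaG
Rps4x, least different: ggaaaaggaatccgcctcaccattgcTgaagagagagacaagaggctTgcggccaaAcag
Rps4l, least different: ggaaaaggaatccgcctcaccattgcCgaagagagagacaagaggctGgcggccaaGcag
Neither the read length nor the handling of shared reads is known here, so the split of reads between these genes is uncertain. Rps4x itself was at 213, 192 and 185 CPM in Kdm5c+/- and 189, 183 and 199.9 CPM in wild type, with overlapping groups. Of the 80 cytosolic ribosomal protein genes tested, 43 had a difference above 0 and the median was 0.01, against 40.6% and -0.03 over all genes.

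Over all genes the differences were small. 90% of them lay between -0.33 and 0.31, the median SE was 0.12, and 26 genes exceeded 1 upward and 12 downward. At an unadjusted p under 0.05 there were 1043 genes (7.56%), where 689.6 are expected by chance. Of these 285 (2.07%) were higher and 758 (5.5%) lower in Kdm5c+/-. That split depended on the scaling: it became 463 to 498 after median-of-ratios scaling, 405 to 538 after quantile normalization, 463 to 501 in edgeR (3.36% and 3.63%, 6.99% in all) and 511 to 476 in DESeq2 (3.71% and 3.45%, 7.16% in all). The number of genes at this p also depended on single libraries. Without wild-type replicate 2 there were 149 higher and 347 lower, together fewer than the 689.6 expected by chance. Without Kdm5c+/- replicate 3 there were 623 and 881. In 516 genes (3.74%) all Kdm5c+/- libraries lay above all wild-type libraries, and in 1343 genes (9.74%) all lay below. After median-of-ratios scaling these counts came to 848 (6.15%) and 891 (6.46%). The edgeR test on recovered reads called 1 gene, Rps4l, while DESeq2 called 53 (0.384%), 25 higher and 28 lower. DESeq2 made 21.8% false calls on simulated data with 200 changed genes, against 7.96% for limma. limma recovered 75.4% of the simulated 2-fold changes, so that single changes of this size could still be missed. The simulation drew the counts of each gene independently, without shifts shared across a library such as that of Kdm5c+/- replicate 2. Its rates of false calls and of recovery may therefore not hold for these libraries.

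**Figure D2:**
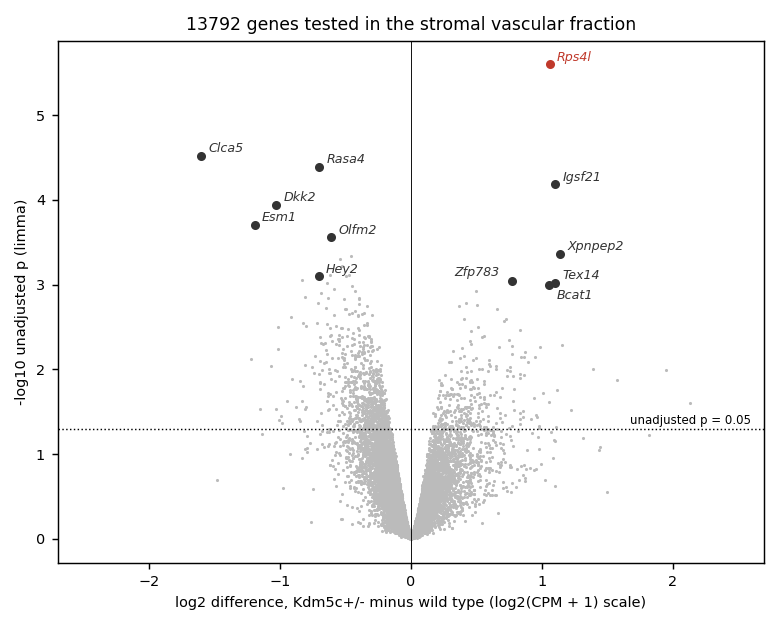
Log2 difference between Kdm5c+/- and wild type (x axis) against -log10 of the unadjusted limma p (y axis) for each of the 13792 genes tested. Rps4l, in red, is the 1 gene past the adjusted threshold; the 11 others named are among those with the smallest p.

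The 12 genes with the smallest p in each direction are described next as candidates that did not pass, apart from Rps4l. Their adjusted p in limma ran up to 0.617. In all 24 the groups did not overlap, as the choice by p favours. The higher ones come first. Igsf21, an immunoglobulin-like adhesion protein known from synapses, was at 5.73, 5.50 and 5.59 CPM in Kdm5c+/- and 1.83, 1.98 and 2.47 CPM in wild type (log2 difference 1.10 ± 0.14, adjusted p = 0.225). Xpnpep2, an X-linked membrane aminopeptidase, was at 37.9, 41.9 and 44.3 CPM in Kdm5c+/- and 16.1, 14.95 and 24.97 CPM in wild type (1.14 ± 0.18). For both, the 3 Kdm5c+/- libraries lay close together and above all wild-type libraries.

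Bcat1, the cytosolic enzyme that starts the breakdown of branched-chain amino acids, was at 8.40, 8.43 and 6.78 CPM in Kdm5c+/- and 2.42, 3.01 and 4.62 CPM in wild type (1.05 ± 0.20). Tex14, a protein of the bridges between germ cells, was at 3.32, 5.22 and 3.86 CPM in Kdm5c+/- and 1.88, 0.943 and 1.38 CPM in wild type (1.10 ± 0.21). Zmynd8, a chromatin reader known to work with KDM5C at enhancers, was at 159, 192 and 167 CPM in Kdm5c+/- and 128, 128 and 107 CPM in wild type (0.50 ± 0.11). In none of the 3 did the groups overlap, and in Bcat1 wild-type replicate 3 came nearest. The others were Zfp783 (0.77 ± 0.15), Enc1, an actin-binding protein (0.49 ± 0.10), the matrix protease Adamts4 (0.42 ± 0.09), Ermp1, a peptidase of the endoplasmic reticulum (0.37 ± 0.08), Lsm3, part of an RNA-binding ring in splicing (0.41 ± 0.09), and 1 gene model without a proper name.

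Among those lower in Kdm5c+/-, Clca5, of a family of chloride channel regulators, had the lowest difference of the 24 at -1.60 ± 0.18, with 5.62, 3.71 and 5.38 CPM in Kdm5c+/- and 15.7, 20.5 and 14.5 CPM in wild type (adjusted p = 0.187). Esm1, a proteoglycan secreted by sprouting endothelium, was at 9.06, 6.41 and 11.1 CPM in Kdm5c+/- and 22.6, 20.0 and 20.8 CPM in wild type (-1.19 ± 0.18, adjusted p = 0.450). Dkk2, a secreted modulator of Wnt signalling, was at 7.12, 5.77 and 8.05 CPM in Kdm5c+/- and 13.6, 16.7 and 15.4 CPM in wild type (-1.03 ± 0.14, adjusted p = 0.316). In each of these 3 genes Kdm5c+/- replicate 2 was the lowest library, and the other Kdm5c+/- libraries were low as well.

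Rasa4, which switches off Ras, was at 98.4, 103 and 99.2 CPM in Kdm5c+/- and 148, 169 and 174 CPM in wild type (-0.70 ± 0.08, adjusted p = 0.187), with more reads behind each value than for Clca5, Esm1 or Dkk2. Hey2, a repressor switched on by Notch, was at 5.59, 5.45 and 5.59 CPM in Kdm5c+/- and 8.50, 11.4 and 9.38 CPM in wild type (-0.71 ± 0.13). Foxc1, a transcription factor of vessel and mesenchyme development, was at 9.93, 9.34 and 9.66 CPM in Kdm5c+/- and 16.6, 16.3 and 13.3 CPM in wild type (-0.62 ± 0.11). The Kdm5c+/- libraries hardly differed among themselves in Hey2 and Foxc1. Also lower were Olfm2 (-0.61 ± 0.10), the microtubule protein Cep170b (-0.46 ± 0.08), Pgm5, a protein of muscle cell junctions (-0.54 ± 0.09), the phosphatase Ptp4a3 (-0.53 ± 0.09), Fam57b (-0.48 ± 0.09) and the endothelial phosphatase-like Pald1 (-0.50 ± 0.09). With all 12 libraries in the fit, 4 genes passed: Rps4l, Clca5, Dkk2 and Igsf21, each with an adjusted p of 0.0324.

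**Figure D3:**
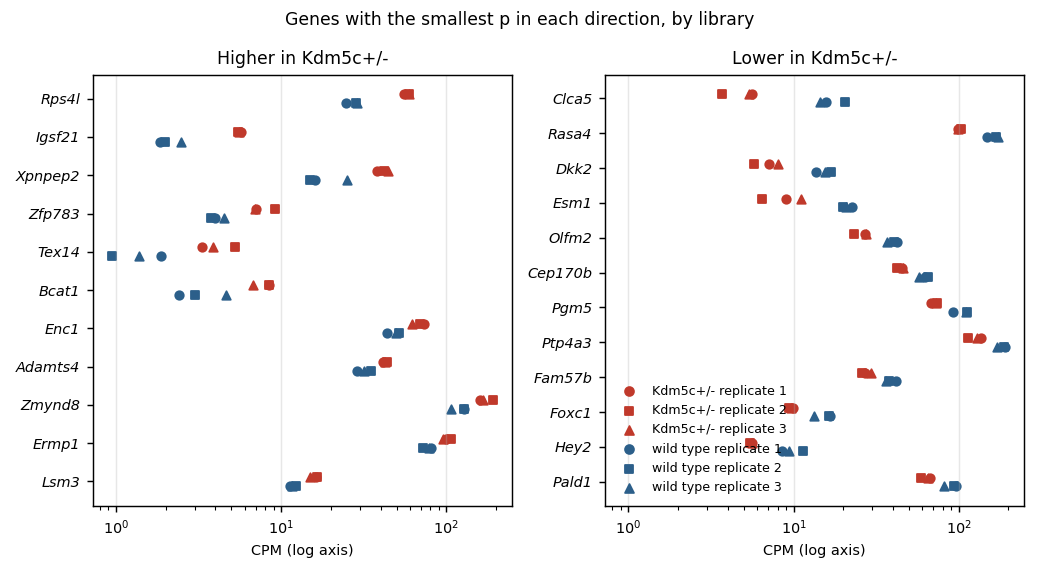
CPM on a log axis in each stromal vascular library for the named genes with the smallest p, 11 higher (left) and 12 lower (right) in Kdm5c+/-; red marks Kdm5c+/-, blue wild type, and the symbol gives the replicate. In every gene shown the 3 red points lie on one side of the 3 blue points.

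The gene lists that follow hold no member that passed (0), so they are described by counts and medians beside those of all genes (40.6% above 0, median -0.03). The median of all genes moved to between -0.01 and 0.01 under the 4 other scalings and tools. A lower level in a mixed fraction can come from fewer cells of a type or from less RNA per cell, and these cannot be told apart here.

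**Figure D4:**
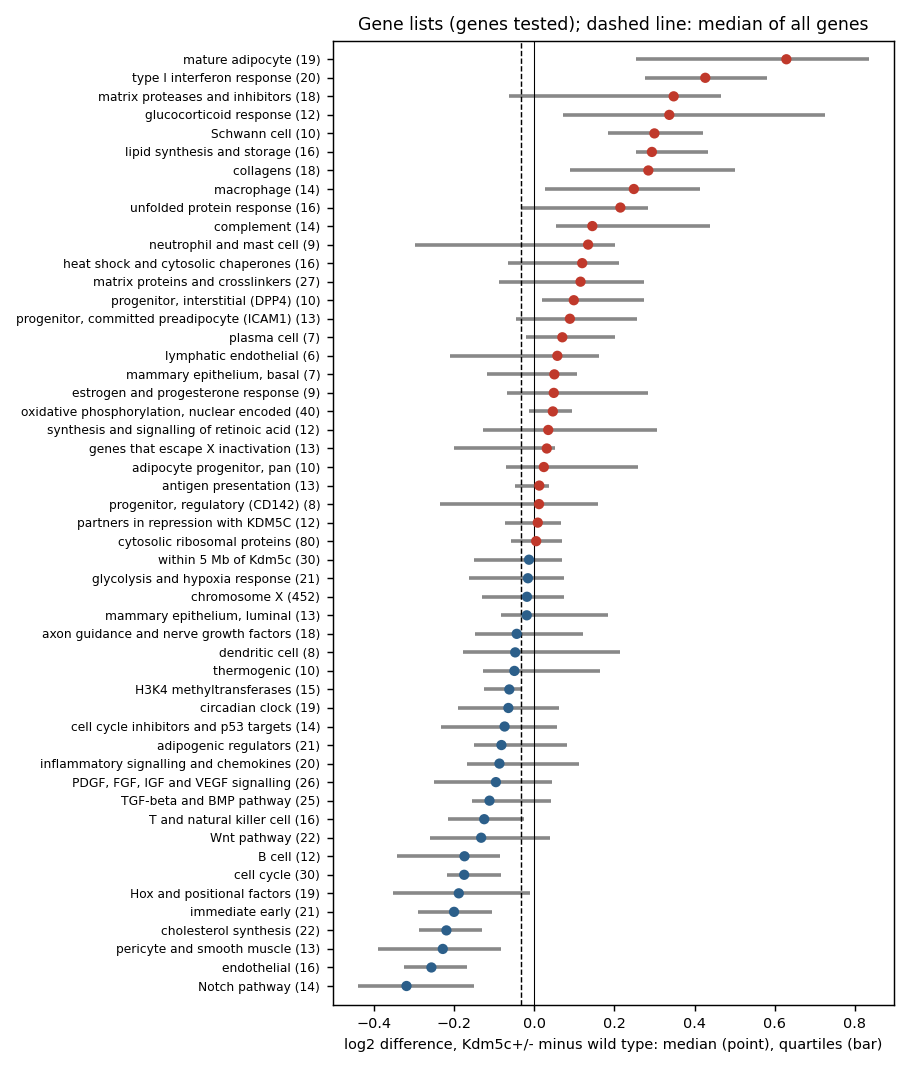
Median log2 difference (point) and quartiles (bar) between Kdm5c+/- and wild type for the lists with at least 5 tested genes, with the number tested in brackets; red medians lie above 0 and blue below. Mature adipocyte (0.63) and type I interferon genes (0.43) stand at the top, endothelial (-0.26) and Notch pathway genes (-0.32) at the bottom.

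Genes of the type I interferon response were higher in Kdm5c+/- in 19 of 20 tested members, with a median difference of 0.43. Type I interferons act through a cell-surface receptor, and the promoters of many antiviral genes that respond to them hold the interferon-stimulated response element. Unadjusted p was under 0.05 in 10 of the 20, all higher (2.07% over all genes). In 7 of the 20 all Kdm5c+/- libraries lay above all wild-type libraries (3.74% over all genes, and 8 against 6.15% after median-of-ratios scaling), while 0 passed. The median was 0.28 to 0.59 with 1 library left out, the lowest without Kdm5c+/- replicate 2, and above 0 in all 15 alternatives.

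Promoters of 3 list members are shown, those with matches to the element on the gene strand in the bases printed. The bases are the 150 before the RefSeq start (GRCm38.p6, gene strand, 5′ to 3′). Capitals mark matches to the element, searched as GAAA, 2 bases of any kind and GAAA, and matches can overlap. Ifit1, Ifit3 and Rsad2 also hold full matches in their 150 bases, on the other strand, and are not shown.
Bst2, chr8:71537473-71537622, minus strand: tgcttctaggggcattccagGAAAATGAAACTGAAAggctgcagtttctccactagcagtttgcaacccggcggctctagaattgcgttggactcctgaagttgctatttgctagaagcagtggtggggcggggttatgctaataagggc
Oas1a, chr5:120907526-120907675, minus strand: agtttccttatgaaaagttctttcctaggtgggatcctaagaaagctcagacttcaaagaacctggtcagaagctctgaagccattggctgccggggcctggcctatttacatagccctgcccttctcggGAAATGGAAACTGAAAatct
Isg15, chr4:156200819-156200968, minus strand: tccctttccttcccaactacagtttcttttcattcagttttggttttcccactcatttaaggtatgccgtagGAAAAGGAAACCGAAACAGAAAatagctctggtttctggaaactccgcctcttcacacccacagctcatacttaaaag
Searched on both strands from 250 bases before to 50 after the start, the motif was found in 8 of the 12 list genes with a RefSeq promoter entry, against 1079 of all 27025 genes with one (3.99%; 3.44% of all 32851 promoters). A match is a run of letters and not a bound site.

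Bst2, tetherin, which holds budding virus at the cell surface, was at 94.1, 91.2 and 82.2 CPM in Kdm5c+/- and 67.5, 70.5 and 77.6 CPM in wild type (log2 difference 0.31 ± 0.09, adjusted p = 0.617). Oas1a, a sensor of double-stranded RNA, was at 16.6, 21.3 and 12.1 CPM in Kdm5c+/- and 8.90, 7.81 and 11.8 CPM in wild type (0.74 ± 0.22). Its relative Oas2 was at 59.1, 93.6 and 51.8 CPM in Kdm5c+/- and 39.0, 29.9 and 42.3 CPM in wild type (0.83 ± 0.24). In Oas1a and Oas2 Kdm5c+/- replicate 2 was highest and replicate 3 closest to wild type. The antiviral GTPase Mx1 (0.56 ± 0.18), the nucleic acid sensor Zbp1 (0.79 ± 0.25), Stat2, a transcription factor of the pathway (0.24 ± 0.08), and Ifi27l2a (0.97 ± 0.40) completed the 7 without overlap. Irf7, the factor that amplifies interferon production, was at 80.2, 107 and 55.6 CPM in Kdm5c+/- and 47.0, 43.9 and 57.5 CPM in wild type (0.66 ± 0.24), where replicate 3 fell inside the wild-type range. Isg15, a ubiquitin-like modifier, was at 19.0, 22.1 and 12.4 CPM in Kdm5c+/- and 11.003, 10.1 and 16.6 CPM in wild type (0.47 ± 0.25) and overlapped as well. The 1 member with a difference below 0 was Rsad2, viperin (-0.25 ± 0.18), whose promoter is among the 8 with the motif. Macrophage markers, also higher in 12 of 14, summed to 2588 to 3865 CPM in Kdm5c+/- and 2590.2 to 2765 CPM in wild type, none of them at 0. Their part in the interferon result was not tested.

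Notch pathway genes were lower in Kdm5c+/- in 13 of 14 tested members, with a median difference of -0.32. Notch receptors are cut when a ligand on a neighbouring cell binds, and the freed part switches on Hes and Hey repressors. In endothelium and pericytes the pathway is known for setting artery identity and keeping mural cells on the vessel. Groups did not overlap in 7 of the 14, all lower (9.74% over all genes, and 7 of 14 against 6.46% after median-of-ratios scaling).

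Among ligands, Dll4 of arterial and sprouting endothelium was at 112, 81.0 and 152 CPM in Kdm5c+/- and 181, 202 and 161 CPM in wild type (-0.70 ± 0.22), and Jag2 was at 129, 116 and 109 CPM in Kdm5c+/- and 150.4, 142 and 137 CPM in wild type (-0.28 ± 0.09). Among receptors, Notch3, the receptor of mural cells, was at 663, 575 and 689 CPM in Kdm5c+/- and 785, 895 and 956 CPM in wild type (log2 difference -0.45 ± 0.12, adjusted p = 0.617). For Dll4 and Notch3 Kdm5c+/- replicate 2 was the lowest library. Notch1 had -0.14 ± 0.10 and Notch4 -0.18 ± 0.10, with overlapping groups. Of the targets, Hey1 was at 40.1, 39.7 and 38.7 CPM in Kdm5c+/- and 59.8, 48.4 and 49.5 CPM in wild type (-0.40 ± 0.09), Heyl, which is known from mural cells, at 91.0, 71.0 and 120.2 CPM in Kdm5c+/- and 147, 151 and 127 CPM in wild type (-0.61 ± 0.18), and Hes1 at 81.2, 77.6 and 100.3 CPM in Kdm5c+/- and 107, 126 and 106 CPM in wild type (-0.39 ± 0.12). Hey2, given above, belongs to the same group. Rbpj, the DNA-binding partner of all Notch receptors, had -0.05 ± 0.12. The median was -0.36 to -0.24 with 1 library left out, the nearest to 0 without Kdm5c+/- replicate 2, and below 0 in all 15 alternatives.

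**Figure D5:**
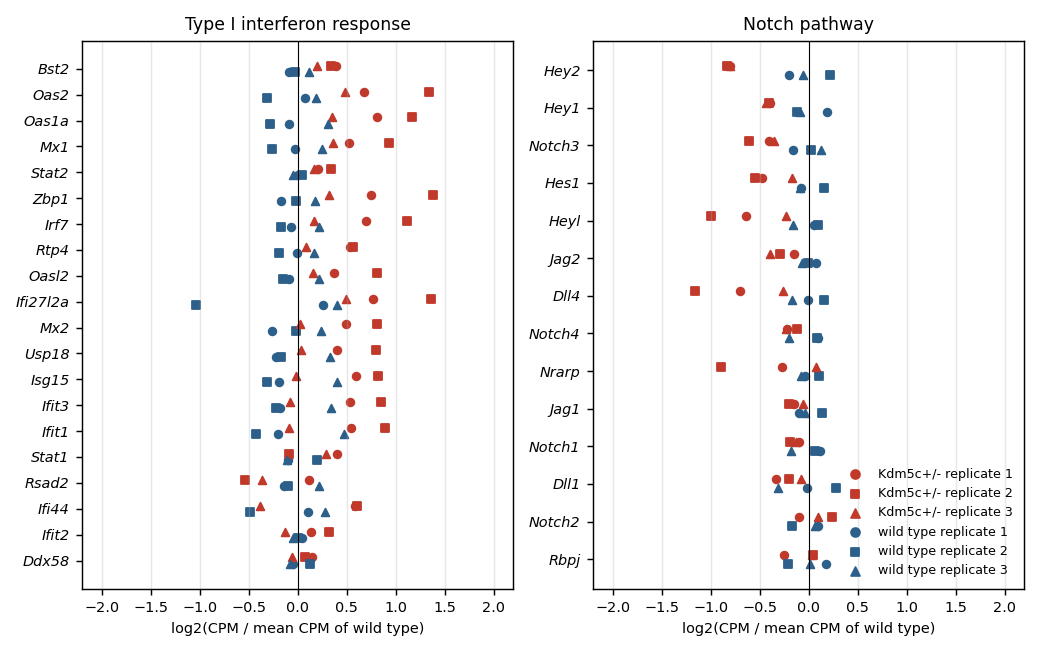
Log2 of CPM over the wild-type mean (x axis) for the 20 type I interferon and 14 Notch pathway genes tested, ordered by p from the top; red marks Kdm5c+/-, blue wild type, and the symbol gives the replicate. In the upper rows the red points lie to the right for interferon and to the left for Notch genes, with Kdm5c+/- replicate 2 (square) usually farthest and replicate 3 (triangle) nearest to wild type.

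Markers of the vessel wall were also mostly lower. Of 16 endothelial markers 15 had a difference below 0 (median -0.26), and of 13 pericyte and smooth muscle markers 10 did (median -0.23). The endothelial markers summed to 8268 to 10755 CPM in Kdm5c+/- and 10444 to 11333 CPM in wild type, and the pericyte markers to 4248 to 4545 and 4502 to 5748 CPM, none of them at 0. Their part in the Notch result was not tested, and Notch3 is a member of both the Notch pathway list and the pericyte and smooth muscle list. Without Kdm5c+/- replicate 2 the endothelial median was -0.14 and the pericyte median -0.26.

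Erg, a transcription factor that keeps endothelial identity, was at 146, 113 and 153 CPM in Kdm5c+/- and 192, 221 and 172 CPM in wild type (log2 difference -0.51 ± 0.14, adjusted p = 0.617). Kdr, the main receptor for VEGF, was at 1044, 855 and 947 CPM in Kdm5c+/- and 1386, 1110.0 and 1112 CPM in wild type (-0.34 ± 0.13). Cdh5, the cadherin of endothelial junctions, was at 2240.3, 1502 and 1898 CPM in Kdm5c+/- and 2363, 2564 and 2010.0 CPM in wild type (-0.31 ± 0.17). Erg and Kdr did not overlap between the groups, while Cdh5 did. Sox17 (-0.28 ± 0.10) and the angiopoietin receptor Tek (-0.21 ± 0.10) were the other endothelial markers without overlap, 4 of 16 in all, each lower (9.74% over all genes, and 3 of 16 against 6.46% after median-of-ratios scaling). Of pericyte markers, Kcnj8, a potassium channel subunit, was at 106, 50.1 and 101 CPM in Kdm5c+/- and 131, 155 and 143 CPM in wild type (-0.80 ± 0.28), and Abcc9, its partner in the channel, at 464, 439 and 507 CPM in Kdm5c+/- and 544, 652 and 575 CPM in wild type (-0.33 ± 0.10). Rgs5, a regulator of G protein signalling, was at 779, 651 and 971 CPM in Kdm5c+/- and 793, 1068 and 934 CPM in wild type (-0.23 ± 0.17) and overlapped, as did the smooth muscle myosin Myh11 (-0.28 ± 0.20). The proteoglycan Cspg4, known as NG2, did not (-0.49 ± 0.22). With Notch3, given above, 4 of 13 pericyte and smooth muscle markers did not overlap, each lower. The share was 9.74% over all genes, and after median-of-ratios scaling it was 4 of 13 against 6.46%.

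Progenitor markers showed no common shift. The 10 pan-progenitor markers had a median of 0.02, with 7 above 0 and no groups without overlap (0). Pdgfra, the receptor that marks progenitors, was at 628, 609 and 732 CPM in Kdm5c+/- and 573, 586 and 772 CPM in wild type. Dcn, the matrix proteoglycan decorin, was at 2857, 3150.0 and 3890.2 CPM in Kdm5c+/- and 3725, 4138 and 4687 CPM in wild type (-0.35 ± 0.16). The collagens Col1a1 (0.56 ± 0.20) and Col3a1 (0.63 ± 0.28) went the other way. Medians were 0.10 for DPP4-type interstitial, 0.09 for ICAM1-type committed and 0.01 for CD142-type regulatory progenitor markers. Each of these 3 changed sign under at least 1 alternative.

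Matrix genes were mostly higher. Of 18 collagen genes 15 had a difference above 0 (median 0.28, 0.06 to 0.47 with 1 library left out), but in 1 gene each the Kdm5c+/- libraries lay all above (Col16a1, 0.58 ± 0.21) or all below wild type (Col8a1, -0.56 ± 0.32; 3.74% and 9.74% over all genes). Col1a2, a chain of type I collagen, was at 4679, 3997 and 5654 CPM in Kdm5c+/- and 2747, 2828 and 4168 CPM in wild type (0.57 ± 0.20), with wild-type replicate 3 inside the Kdm5c+/- range. Of 27 matrix proteins and crosslinkers 18 had a difference above 0 (median 0.12, 0.03 to 0.20 with 1 library left out). In 1 of the 27, Vcan, the Kdm5c+/- libraries lay all above wild type, and in 1, Nid2, all below (3.74% and 9.74% over all genes). These counts are no result about the list. Vcan, the proteoglycan versican, was at 150.4, 193 and 233 CPM in Kdm5c+/- and 84.4, 80.2 and 137 CPM in wild type (0.95 ± 0.25, adjusted p = 0.617), with no overlap. Postn, periostin, was at 2143, 2436 and 2597 CPM in Kdm5c+/- and 1064, 1409 and 2212 CPM in wild type (0.68 ± 0.26), and wild-type replicate 3 again lay inside the Kdm5c+/- range. The basement membrane protein Nid2 went the other way (-0.51 ± 0.18).

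Of 18 matrix proteases and inhibitors 12 had a difference above 0 (median 0.35, 0.21 to 0.37 with 1 library left out), and in 5 all Kdm5c+/- libraries lay above wild type (3.74% over all genes, and 5 against 6.15% after median-of-ratios scaling). Adamts2, which trims procollagen, was at 319, 298 and 340.3 CPM in Kdm5c+/- and 207, 168 and 268 CPM in wild type (0.60 ± 0.16). Adamts4, an aggrecanase that also cuts versican, was at 41.4, 43.9 and 42.7 CPM in Kdm5c+/- and 28.9, 34.8 and 31.6 CPM in wild type (0.42 ± 0.09). Mmp19 was at 90.6, 91.0 and 106 CPM in Kdm5c+/- and 41.0, 61.0 and 74.4 CPM in wild type (0.73 ± 0.21). Mmp3 (0.47 ± 0.15) and Mmp9 (0.38 ± 0.14) were the other members above wild type without overlap. Mmp11, stromelysin 3, had the reverse pattern at 34.7, 25.8 and 35.1 CPM in Kdm5c+/- and 81.2, 77.0 and 43.8 CPM in wild type (-1.02 ± 0.25), with wild-type replicate 3 nearest to Kdm5c+/-.

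Macrophage markers had a median of 0.25 (0.10 without Kdm5c+/- replicate 2), and complement genes 0.15 (0.08 to 0.31 with 1 library left out), with 12 of 14 above 0 in each list. The 3 chains of C1q start the classical complement pathway and are made by tissue macrophages. C1qa and C1qb are in both lists, and C1qc is in the macrophage list but not the other. C1qa was at 284, 440.4 and 329.9 CPM in Kdm5c+/- and 246, 262 and 267 CPM in wild type (0.42 ± 0.15). C1qb had 0.45 ± 0.16 and C1qc 0.46 ± 0.15, and none of the 3 overlapped between the groups. Cfp, properdin, which stabilises the alternative pathway, was at 129.6, 207 and 155 CPM in Kdm5c+/- and 105, 97.2 and 116 CPM in wild type (0.60 ± 0.17). Replicate 2 was the highest of the Kdm5c+/- libraries in C1qa and Cfp. In 3 of 14 macrophage markers, the C1q genes, all Kdm5c+/- libraries lay above wild type. The same held for 4 of 14 complement genes, C1qa, C1qb and Cfp among them. Over all genes the share was 3.74% (6.15% after median-of-ratios scaling, where both list counts stayed the same). Csf1r, the receptor for the macrophage growth factor, was at 313, 444 and 452 CPM in Kdm5c+/- and 382, 366 and 359.6 CPM in wild type (0.11 ± 0.15), with overlapping groups. Trem2, a lipid receptor of macrophages, was at 3.32, 2.38 and 5.05 CPM in Kdm5c+/- and 4.20, 9.52 and 5.89 CPM in wild type (-0.70 ± 0.31), with overlapping groups. Schwann cell markers, from the nerves of the depot, were above 0 in 10 of 10 (median 0.30, and 0.13 without Kdm5c+/- replicate 2), with overlapping groups.

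Some lists turned with 1 library. B cell markers had a median of -0.17 and T and natural killer cell markers -0.12, but 0.37 and 0.28 without Kdm5c+/- replicate 2. Both medians were also above 0 without wild-type replicate 1. Cholesterol synthesis genes went from -0.22 to 0.006 and glucocorticoid response genes from 0.34 to -0.01 without Kdm5c+/- replicate 2. Fkbp5, a glucocorticoid target, was at 65.8, 178 and 41.0 CPM in Kdm5c+/- and 34.3, 32.2 and 43.1 CPM in wild type (1.09 ± 0.50).

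Genes of mature adipocytes, which should be scarce in the pellet, were higher in 17 of 19 members with a median of 0.63, but the groups separated in 0 of them. The list summed to 5430.0 to 10646 CPM in Kdm5c+/- and 6031 to 6469 CPM in wild type. Pck1, which makes glycerol for fat storage in adipocytes, was at 136, 361 and 37.2 CPM in Kdm5c+/- and 56.6, 28.5 and 24.3 CPM in wild type (1.82 ± 0.80). Cidec, a protein of the single large fat droplet, was at 135, 194 and 58.6 CPM in Kdm5c+/- and 76.2, 40.2 and 48.5 CPM in wild type (1.11 ± 0.45). The high Kdm5c+/- libraries were replicates 1 and 2, and replicate 3 lay within or near the wild-type range. Without replicate 2 the median was 0.37.

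Lipid synthesis and storage genes had 15 of 16 members above 0 and a median of 0.29 (0.10 to 0.54 with 1 library left out). Plin2, the droplet coat protein of many cell types, macrophages and progenitors among them, was at 262, 343 and 203 CPM in Kdm5c+/- and 136, 182 and 147 CPM in wild type (0.77 ± 0.20, adjusted p = 0.617), with no overlap. Lpl, which frees fatty acids from circulating lipoproteins, was at 1598, 1854 and 1673 CPM in Kdm5c+/- and 1324, 1203 and 1639 CPM in wild type (0.31 ± 0.14). Scd1, a desaturase, varied widely within wild type, at 3519, 2446 and 1312 CPM in Kdm5c+/- and 3021, 727 and 1335 CPM in wild type (0.65 ± 0.58). The part of adipocyte RNA in these values was not tested.

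Regulators of fat cell formation had a median of -0.08 (0.006 without Kdm5c+/- replicate 3), and 6 of 21 lay below wild type in all Kdm5c+/- libraries (9.74% over all genes, and 4 of 21 against 6.46% after median-of-ratios scaling). Gata2, which holds progenitors back from differentiation, was at 84.7, 75.5 and 79.7 CPM in Kdm5c+/- and 110.1, 103 and 95.3 CPM in wild type (-0.36 ± 0.08). Zfp423, a factor of committed preadipocytes, was at 38.9, 35.2 and 39.4 CPM in Kdm5c+/- and 48.6, 45.8 and 45.5 CPM in wild type (-0.30 ± 0.08). Ebf1, which acts in preadipocytes and in B cells, was at 210.4, 166 and 228 CPM in Kdm5c+/- and 271, 269.6 and 254 CPM in wild type (-0.40 ± 0.12). These 3 had the smallest p of the list, and members known for opposed roles among them had differences of the same sign. Adjusted p was 0.617 for each of the 3. Of all 21 members 7 had a difference above 0, and 10 did under the other scalings, in edgeR and in DESeq2. The Wnt pathway list (22 tested) had a median of -0.13 (-0.16 to -0.06 with 1 library left out), with Wnt11 at 6.86, 10.1 and 9.90 CPM in Kdm5c+/- and 15.3, 11.6 and 13.6 CPM in wild type (-0.55 ± 0.17) and Ctnnb1, beta-catenin, at 826, 672 and 807 CPM in Kdm5c+/- and 911, 983 and 951 CPM in wild type (-0.31 ± 0.11). In this list 7 of 22 had a difference above 0 (40.6% over all genes). In 4 all Kdm5c+/- libraries lay below wild type and in 1 all above (9.74% and 3.74% over all genes). After median-of-ratios scaling these counts were 3 and 1 (6.46% and 6.15% over all genes).

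Hox and other positional factors were below 0 in 15 of 19 (13 under the other scalings, in edgeR and in DESeq2), with a median of -0.19 (-0.24 to -0.15 with 1 library left out). These genes keep the address of a cell along the body axis and differ between fat depots. Hoxd8 was at 36.3, 31.9 and 29.0 CPM in Kdm5c+/- and 40.4, 41.4 and 42.9 CPM in wild type (-0.36 ± 0.09), Hoxa9 at 8.65, 10.9 and 9.21 CPM in Kdm5c+/- and 13.7, 12.7 and 12.7 CPM in wild type (-0.42 ± 0.11) and Hoxd9 at 18.1, 17.8 and 12.2 CPM in Kdm5c+/- and 20.7, 21.95 and 23.0 CPM in wild type (-0.44 ± 0.15). In 6 of the 19 all Kdm5c+/- libraries lay below wild type, both before and after median-of-ratios scaling (9.74% and 6.46% over all genes).

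Immediate early genes, which respond within minutes to handling, digestion or growth factors, were below 0 in 19 of 21 (median -0.20, -0.30 to -0.13 with 1 library left out). Egr1 was at 1806, 1938 and 1751 CPM in Kdm5c+/- and 2577, 2637 and 1955 CPM in wild type (-0.37 ± 0.14), Nr4a1 at 135, 129 and 164 CPM in Kdm5c+/- and 171, 219 and 166 CPM in wild type (-0.37 ± 0.14) and Ier3 at 90.6, 93.1 and 90.9 CPM in Kdm5c+/- and 105, 134 and 119 CPM in wild type (-0.37 ± 0.10). The count without overlap was 4, all lower (9.74% over all genes), and 1 after median-of-ratios scaling, under the 6.46% of all genes. Cell cycle genes were below 0 in 28 of 30 (25 to 27 under the other scalings, in edgeR and in DESeq2). Their median was -0.17 (-0.28 to -0.04 with 1 library left out). In 2 of the 30 all Kdm5c+/- libraries lay below wild type, before and after median-of-ratios scaling (9.74% and 6.46% over all genes). That count is no result about the list. Mki67 was at 51.0, 40.7 and 56.9 CPM in Kdm5c+/- and 63.3, 87.4 and 49.5 CPM in wild type (-0.40 ± 0.22), with overlapping groups. The unfolded protein response list was above 0 in 11 of 16 (median 0.22, and 0.08 without Kdm5c+/- replicate 2), with the chaperone Calr at 712, 867 and 649 CPM in Kdm5c+/- and 518, 619.8 and 639 CPM in wild type (0.32 ± 0.14). Its member Trib3, a pseudokinase of the stress response, was lower (-0.35 ± 0.12).

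The enzymes that write and erase the mark removed by KDM5C differed little. All 4 of the other H3K4 demethylases tested had a difference below 0, with a median of -0.07 and overlapping groups, but that of Kdm5a (-0.02 ± 0.08) was above 0 under the other scalings, in edgeR, in DESeq2 and without wild-type replicate 1. Kdm5b was at 63.5, 54.5 and 64.4 CPM in Kdm5c+/- and 65.7, 62.9 and 59.3 CPM in wild type, and Kdm1a, known as LSD1, at 59.3, 54.4 and 55.9 CPM in Kdm5c+/- and 60.4, 64.6 and 57.1 CPM in wild type (-0.10 ± 0.08). Among 15 genes of the H3K4 methyltransferases and their complexes (median -0.06), Setd1b was at 140.0, 137 and 139.9 CPM in Kdm5c+/- and 186, 178 and 152 CPM in wild type (-0.30 ± 0.09). Paxip1, a subunit of the KMT2C and KMT2D complexes, was at 39.7, 37.2 and 38.1 CPM in Kdm5c+/- and 44.4, 47.5 and 42.6 CPM in wild type (-0.22 ± 0.08). These were the 2 of 15 members whose groups did not overlap, near the 9.74% of all genes that lay below wild type (6.46% after median-of-ratios scaling, again with 2 members), so the count is no result about the list. The 12 partners of KDM5C in repression, such as the E2F6 complex, had a median of 0.01.

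Germline genes are known targets of KDM5C in other tissues, where they are silenced outside the testis and ovary. Of 20 in the list, 9 were in the table and 2 reached the filter, Tex14, given above, and Tex15 at 0.548, 1.19 and 2.01 CPM in Kdm5c+/- and 0.224, 1.08 and 1.13 CPM in wild type (0.31 ± 0.32). The other 7 in the table did not reach it.

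On the X chromosome itself, 452 genes were tested. Their median was -0.02, which was above 0 under median-of-ratios and quantile scaling, in edgeR and in DESeq2, and 18 lay above and 42 below wild type without overlap (3.98% and 9.29%, near the shares over all genes). The 30 genes within 5 Mb of Kdm5c had a median of -0.01 and the 13 other genes that escape X inactivation 0.03, both of which changed sign between alternatives. Xist, the RNA that silences 1 X chromosome in females, was at 944, 1174 and 1092 CPM in Kdm5c+/- and 1036, 809 and 858 CPM in wild type (0.25 ± 0.13).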

How the data were processed

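RNA was sequenced from 6 stromal vascular libraries, 3 per genotype label, each a pool of 2 mice. Strand-specific libraries were made with the NuGEN Universal plus mRNA-Seq kit, per the labels' protocols. STAR 2.7.2a, edgeR 3.26.8 and the build GRCm38 are named in the submitters' processing notes; no source used here names the counting tool, its annotation or the read length. The authors deposited CPM, counts scaled to 1000000 per library over the genes listed, with no mitochondrially encoded gene (0). All values (100%) were whole multiples of 1 step per library (tolerance 0.05 read), so whole reads were recovered. Floors of 3 reads cover counting error only, and reads are not independent molecules.

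limma 3.58.1 (R 4.3.3; lmFit, eBayes, trend and robust options) was run on log2(CPM + 1) for genes that reached 1 CPM in 3 or more libraries, two-sided, with Benjamini-Hochberg adjustment over all 13792 genes and a threshold of 0.05. This scale understates changes of low genes. Nothing in the labels says how the pools were bred, so p-values measure the spread between these pools. edgeR 4.0.16 (quasi-likelihood) and DESeq2 1.42.0 were run on the recovered reads as alternatives. On data simulated for this comparison (13792 genes), its recovery was 75.4% for 2-fold and 93.6% for 4-fold changes by limma. Other alternatives were a pseudocount of 0.25, no filter or a mean of 5 CPM, median-of-ratios and quantile scaling, all 12 libraries, a replicate block, and leaving out each library.

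Genes named were Kdm5c, those past the threshold, the 12 with the smallest p per direction, and up to 3 members per list by p, with the 3 most abundant of each marker list; some of these are left out, and further list members were named after their values were seen. The members and lists were chosen with earlier results of these data known. Symbols matched GENCODE release 21 for 16477 genes (98.8%), and 23 symbols turned into dates are not named. Promoters are from RefSeq (GRCm38.p6). Tables and figures were made with Python 3.11.15, pandas 2.3.3, numpy 2.4.6, Biopython 1.88 and matplotlib 3.10.9. The mature adipocyte libraries were used only where named.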

Additional observations from a re-analysis of the deposited data

How the results depend on the processing

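The count of genes that passed was 1, the gene being Rps4l, with a pseudocount of 0.25, without a filter, with a mean of at least 5 CPM, after median-of-ratios or quantile scaling, and in edgeR. It was 4 with all 12 libraries and 53 in DESeq2. With 1 library left out it was 0 each time (lowest 0, highest 0), with fewer libraries in the fit. Rps4l kept its direction in all 15 alternatives and ranked first or next to first by p. The Kdm5c difference ran from -0.0146 to 0.0576 with 1 library left out and was below 0 without wild-type replicate 3, Kdm5c+/- replicate 1 or Kdm5c+/- replicate 2; the cause was not tested. The difference of Rbpj ran from -0.152 to 0.0443 over the same fits and that of Kdm5a from -0.0893 to 0.0385. Kdm5a was at 0.0169 after median-of-ratios scaling, 0.0245 after quantile scaling, 0.00874 in edgeR and 0.0143 in DESeq2; the cause was not tested. Of 1482 other values of 99 named genes, 1439 kept their direction and side of the threshold. DESeq2 called 26 more of the named genes. Of 55 list medians, 28 kept their sign throughout.

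Replicate numbers did not pair the genotypes: deviations of libraries with the same number correlated at 0.185, -0.286 and -0.208 across genes, and not every library correlated best with its own number. With the replicate number as a block, 0 genes passed, and the adjusted p of Rps4l was 0.345.

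With 3 pools a group the median SE was 0.12; recovery of changes under 2-fold was not simulated.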

Other observations

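Of the 12 genes with the smallest p in the higher direction, 4 lie on chromosome 6: Rps4l, Zfp783, Bcat1 and Lsm3, a count made after their values were seen. Chromosome 6 holds 712 of the 13792 genes tested. On that chromosome 26 of 712 tested genes (3.65%) had an unadjusted p under 0.05 and a higher level in Kdm5c+/-, against 2.07% over all genes. The share with a lower level was also above that of all genes, at 48 genes (6.74%) against 5.50%, and in 31 genes (4.35%) all Kdm5c+/- libraries lay above wild type, near the 3.74% of all genes. In GRCm38, Bcat1 begins at 144993835, Rps4l at 148354656, Lsm3 at 91515928 and Zfp783 at 47943171 (lowest coordinate). The Kdm5c+/- libraries also held more of their reads in the 10 most abundant genes (7.69% to 8.41%) than wild type did (5.77% to 6.74%). Lars2, the mitochondrial leucyl-tRNA synthetase, stood at 868, 1622 and 329 CPM in Kdm5c+/- and 165, 228 and 211 CPM in wild type. Its log2 difference was 1.95 ± 0.54 (adjusted p = 0.617 in limma). Mir6236 was at 135, 311 and 35.5 CPM in Kdm5c+/- and 19.8, 34.8 and 23.7 CPM in wild type. In Lars2, Mir6236 and Rn45s alike, replicate 2 was the highest Kdm5c+/- library and replicate 3 the lowest. The source of the reads counted for these genes was not tested.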
